A study of Mus musculus with 12 samples.

Results

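This section describes the T cell receptor alpha (TCRα) sequences that carried TRAJ12, TRAJ13, TRAJ15, TRAJ16, TRAJ17 or TRAJ18, a run of neighbouring J segments at the 3′ end of the mouse Tcra locus, in regulatory T cells (Treg) newly formed in the thymus. Members were all in-frame rows (no stop and no frameshift in the CDR3) of 12 clonotype tables whose J segment is numbered from 12 to 18. They came to 12312 of 57431 rows, 48948 of 199248 molecules, and 6 of the 44 TRAJ names in the tables. No row carried TRAJ14. The question was how these segments, their TRAV partners and their CDR3 residues differed between Treg that formed with both cytokines, without IL-2, or without IL-15.

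TCRα mRNA was sequenced from CD4+CD8-Thy1.1+GFP+ thymocytes, 100000 cells from each of 12 individual mice aged 3 weeks. The 3 genotypes were wild type (wt), Il2° (no IL-2) and Il15° (no IL-15), with 4 mice each. All 12 mice, wt included, were on the B6 background and carried Rag2-Gfp, Foxp3-Thy1a, the Kaa Tcrb transgene and 1 null allele of Tcra. Thy1.1 stood for expression of Foxp3, and GFP, driven by the Rag2 promoter, for cells formed recently. Every cell thus had the same TCRβ chain and at most 1 functional Tcra allele, so the repertoire seen is the one that pairs with a single β chain. Foxp3 and other Treg genes could not be checked, since the tables hold TCRα sequences only.

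TCRα is made by joining a V segment (TRAV) to a J segment (TRAJ), with bases trimmed and added at the junction. The CDR3, which reaches from a conserved cysteine of TRAV to a conserved phenylalanine of TRAJ, is the loop that lies over the presented peptide, and the J segment writes its end. Rearrangement starts from J segments far from the constant region and can go on to closer ones, so that these segments belong to those open to later rounds. TRAJ18 is also known for its pairing with TRAV11 in invariant natural killer T (iNKT) cells.

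The 6 germline segments lie on the plus strand of chromosome 14 in GRCm38 (GENCODE M21), between 13.9 and 19.7 kb before the Trac gene, each as the single exon of its gene. They are shown since the part in capitals, which falls inside the CDR3, sets the residues that the members share.
TRAJ18, chr14:54200777-54200842: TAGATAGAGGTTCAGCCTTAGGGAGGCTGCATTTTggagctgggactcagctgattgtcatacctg
TRAJ17, chr14:54201775-54201837: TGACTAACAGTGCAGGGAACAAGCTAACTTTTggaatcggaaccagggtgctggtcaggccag
TRAJ16, chr14:54203134-54203194: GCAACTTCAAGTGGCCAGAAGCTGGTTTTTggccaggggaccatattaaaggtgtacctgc
TRAJ15, chr14:54204422-54204481: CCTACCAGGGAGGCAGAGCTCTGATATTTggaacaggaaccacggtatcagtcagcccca
TRAJ13, chr14:54205741-54205797: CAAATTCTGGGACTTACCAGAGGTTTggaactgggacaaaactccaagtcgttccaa
TRAJ12, chr14:54206553-54206610: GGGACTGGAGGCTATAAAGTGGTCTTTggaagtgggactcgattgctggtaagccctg
In full these stretches encode DRGSALGRLHF (TRAJ18), TNSAGNKLTF (TRAJ17), ATSSGQKLVF (TRAJ16), YQGGRALIF (TRAJ15), NSGTYQRF (TRAJ13) and GTGGYKVVF (TRAJ12). TRAJ18 brings the longest stretch with 11 residues, and TRAJ13 the shortest with 8.

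One rearranged sequence per segment shows how these ends were joined. Each is the most frequent nucleotide sequence of the most abundant clonotype of the segment, from the cysteine codon to the phenylalanine codon, with the bases that match the germline J segment in capitals.
TRAV16 with TRAJ12: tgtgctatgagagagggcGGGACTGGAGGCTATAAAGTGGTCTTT
TRAV4N-3 with TRAJ13: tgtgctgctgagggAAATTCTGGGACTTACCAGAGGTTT
TRAV4D-4 with TRAJ15: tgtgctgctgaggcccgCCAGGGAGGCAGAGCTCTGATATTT
TRAV6D-5 with TRAJ16: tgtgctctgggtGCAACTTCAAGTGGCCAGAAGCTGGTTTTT
TRAV4D-4 with TRAJ17: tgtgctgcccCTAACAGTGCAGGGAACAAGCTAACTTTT
TRAV7-3 with TRAJ18: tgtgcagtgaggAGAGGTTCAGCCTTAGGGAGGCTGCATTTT
The TRAJ12 sequence kept all 27 CDR3 bases of its segment, and the TRAJ16 sequence all 30.

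The libraries held between 7625 and 25980 molecules, counted by unique molecular identifiers (UMIs), random tags given to each mRNA during cDNA synthesis. Il2° replicate 4 was the shallowest library and wt replicate 1 the deepest. A count of 3 UMIs, taken as the floor, was 0.0115% of the deepest and 0.0393% of the shallowest library, and floors and intervals cover counting error only. Since a UMI is an mRNA molecule, more cells with a rearrangement and more Tcra mRNA per cell cannot be told apart. Among replicates no 2 libraries agreed within sampling noise, the smallest chi-square per degree of freedom over 18 pairs being 2.74.

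Together the 6 segments took about the same share of every library. In wt mice they made up 25.1%, 24.9%, 21.4% and 23.0% of all UMIs, in Il2° mice 24.2%, 25.9%, 25.1% and 25.8%, and in Il15° mice 24.5%, 25.6%, 26.4% and 23.7%. The genotype means were 23.6% ± 1.72, 25.3% ± 0.776 and 25.0% ± 1.15 (SD, n = 4 each), and the ranges overlapped.

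Within the group TRAJ12 was by far the most used. TRAJ12 held 8.96%, 8.39%, 6.64% and 7.52% of the UMIs of the wt libraries, 8.57%, 8.95%, 7.70% and 8.16% in Il2°, and 8.47%, 8.38%, 9.43% and 8.11% in Il15°. It ranked 2nd of 43 TRAJ segments with in-frame UMIs, with 16513 UMIs in 1285 clonotypes (a clonotype being a V segment, a CDR3 amino acid sequence and a J segment). TRAJ15 followed at 6th, with 5.23%, 5.52%, 4.87% and 4.93% in wt, 4.87%, 5.70%, 6.01% and 5.74% in Il2°, and 4.46%, 5.42%, 4.53% and 5.07% in Il15°. TRAJ12 lay above TRAJ15 in 12 of 12 libraries, with no overlap of their ranges.

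TRAJ17 ranked 10th, with 4.03% ± 0.316 in wt mice, 4.52% ± 0.422 in Il2° mice and 4.50% ± 0.325 in Il15° mice (means ± SD of 4). TRAJ15 exceeded TRAJ17 in 10 of 12 libraries, so their ranges overlapped. TRAJ18 (14th) and TRAJ13 (15th) came next and could not be placed in order, as TRAJ18 was the higher in 7 of 12 libraries. TRAJ18 averaged 2.53% ± 0.0972, 2.80% ± 0.25 and 2.57% ± 0.387 in wt, Il2° and Il15°, and TRAJ13 2.31% ± 0.137, 2.48% ± 0.263 and 2.59% ± 0.416 (SD, n = 4 each). TRAJ16 was the least used at 19th, with 1.74% ± 0.203, 1.55% ± 0.181 and 1.91% ± 0.256 (SD, n = 4 each).

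**Figure D1:**
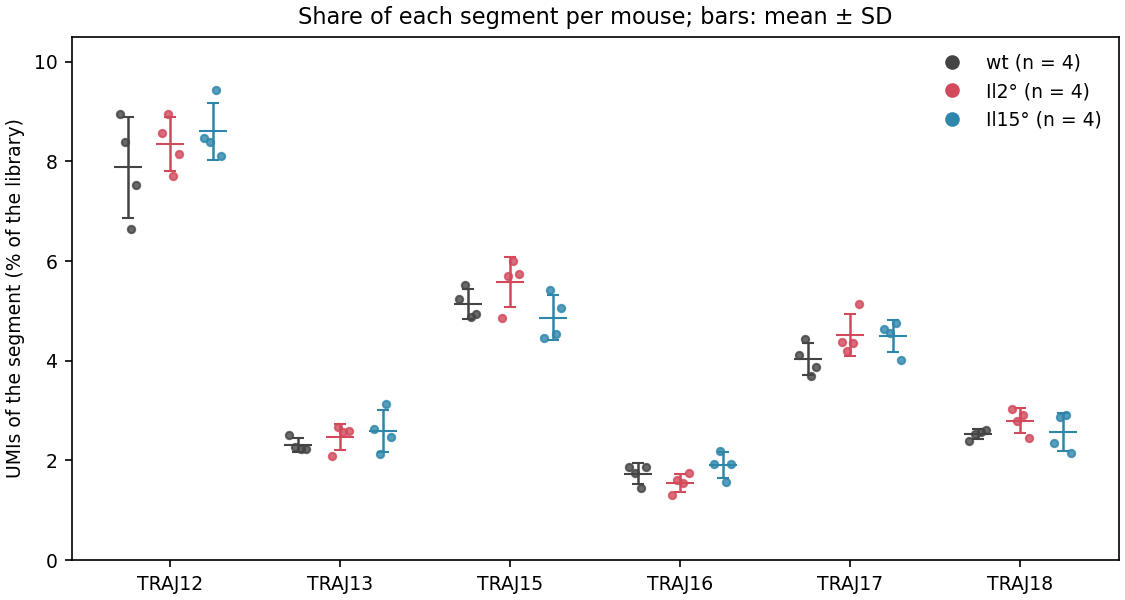
UMIs of each segment as a percentage of all UMIs of the library (y axis), with 1 dot per mouse and bars for the mean ± SD of 4 mice per genotype. The 3 genotypes overlap within each segment, and TRAJ12, at 6.64% to 9.43%, stands above all others.

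None of the 6 segments passed the test between genotypes. The contrasts of Il2° and Il15° with wt share the 4 wt mice, and each mutant also enters the contrast between the mutants. With edgeR's quasi-likelihood test and Benjamini-Hochberg adjustment over 40 segments, 0 of the 6 passed an adjusted p of 0.05 in Il2° against wt (background over all 40, 0%), 0 in Il15° against wt (background 5%) and 0 in Il15° against Il2° (background 10%). DESeq2 and the exact Mann-Whitney test also called 0 of the 6 in each contrast. At an unadjusted p under 0.05, edgeR gave 0 of 6, 0 of 6 and 1 of 6, beside 20%, 10% and 15% of all segments. That 1 was TRAJ15, whose log2 fold change in Il15° against Il2° was -0.23 ± 0.11 (SE), with an edgeR p of 0.0483 and an adjusted p of 0.262. TRAJ16 was the nearest in the other direction, at 0.27 ± 0.13 (SE) with an edgeR adjusted p of 0.262, which lay between 0.0488 (without Il15° replicate 3) and 0.454 with 1 library left out. Across the 18 tests log2 fold changes lay between -0.23 and 0.27, and their median over the 6 segments was 0.13, 0.17 and -0.01 in the 3 contrasts, beside 0.03, -0.02 and -0.08 over all segments.

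The TRAJ segments whose share went most like that of a member over the 12 libraries were named by Spearman correlation. TRAJ16 went most with TRAJ2 (rho = 0.769) and TRAJ18 with TRAJ21 (0.741). TRAJ13 went most with TRAJ9 (0.727) and TRAJ12 with TRAJ48 (0.657), while the highest values of TRAJ17 (0.517, with TRAJ21) and TRAJ15 (0.510, with TRAJ43) were lower. These are descriptions over n = 12 libraries that share their depth and total, and shares of 1 total are not free to vary alone.

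TRAV partners differed strongly from segment to segment. Each segment's use of a TRAV subgroup (copies of a V segment merged under its number) was set against the use of that subgroup in all other TRAJ segments of the same library, by an exact 2-sided sign-flip permutation test over the 12 libraries with Benjamini-Hochberg adjustment over 425 tests. Of 73 tests on the 6 segments 55 passed, where the background over all 425 was 69.6%. The smallest p this test can give is 0.000488, and a difference in the same direction in 12 of 12 libraries always reaches it.

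The TRAV12, TRAV14 and TRAV16 subgroups each took a larger share of TRAJ12 than of the other segments as a whole. TRAV12 supplied 19.4% ± 4.76 of its UMIs against 8.91% ± 1.41 in other segments, TRAV14 11.7% ± 2.54 against 6.38% ± 0.752, and TRAV16 13.4% ± 4.92 against 2.66% ± 0.866 (SD, n = 12). All 3 were higher in 12 of 12 libraries (exact permutation p = 0.000488, adjusted p = 0.00119). TRAV14 and TRAV16 were not particular to TRAJ12, as TRAV14 was 11.9% of TRAJ13 and 13.3% of TRAJ17, and TRAV16 was 13.2% of TRAJ15. TRAV4, the most used subgroup elsewhere, made up only 14.4% ± 1.98 of TRAJ12 against 33.5% ± 4.29 and was lower in 12 of 12 libraries, at the same exact p. TRAV7 was its leading partner with 23.8% ± 5.54 against 19.8% ± 2.02 (higher in 11 of 12 libraries, exact permutation p = 0.0156, adjusted p = 0.0242).

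TRAJ15 drew on TRAV16 as well, at 13.2% ± 5.78 against 3.05% ± 0.830 (SD, n = 12, higher in 12 of 12 libraries, exact permutation p = 0.000488). Its other leading partners were TRAV4 with 38.2% ± 7.74 against 31.6% ± 3.97 (11 of 12 libraries), TRAV6 with 13.3% ± 2.92 against 9.54% ± 0.890 (12 of 12), and TRAV7 with 21.6% ± 5.42 against 20% ± 2.15 (9 of 12, exact permutation p = 0.322). TRAV12 was rare in TRAJ15, at 2.80% ± 1.28 against 10.2% ± 1.59, and lower in 12 of 12 libraries.

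TRAJ16 and TRAJ17 were joined mostly to TRAV4. By its share they ranked 2nd and 5th of 34 segments, beside TRAJ32 (78.6%), TRAJ48 (63.4%) and TRAJ38 (60.1%) outside the group. TRAV4 supplied 65.4% ± 7.47 of TRAJ16 against 31.3% ± 4.02 in other segments, and 58.1% ± 4.95 of TRAJ17 against 30.6% ± 4.33 (SD, n = 12, higher in 12 of 12 libraries each, exact permutation p = 0.000488). TRAV7 was scarce in both, with 4.24% ± 2.02 of TRAJ16 and 4.95% ± 1.85 of TRAJ17 against 20.4% ± 2.18 and 20.8% ± 2.35, and lower in 12 of 12 libraries each. They parted in their other partners, as TRAJ16 had 18.4% ± 8.89 of TRAV6 (10 of 12 libraries higher) and TRAJ17 had 13.3% ± 3.51 of TRAV14 (12 of 12 higher).

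TRAJ18 was the reverse of these. TRAV7 made up 48.8% ± 9.46 of TRAJ18 against 19.3% ± 2.02 in other segments, and TRAV4 only 8.73% ± 3.11 against 32.5% ± 4.09 (SD, n = 12, the same direction in 12 of 12 libraries each, exact permutation p = 0.000488). TRAV13 was raised to 7.61% ± 3.66 against 2.64% ± 0.409, also in 12 of 12 libraries. TRAJ13 departed less in its leading partners, with TRAV4 at 37.2% ± 6.54 against 31.8% ± 4.00 (11 of 12 libraries) and TRAV14 at 11.9% ± 2.84 against 6.71% ± 0.808 (11 of 12). By cosine of mean TRAV use, TRAJ17 was most like TRAJ39 (0.983), TRAJ16 like TRAJ38 (0.978), TRAJ13 like TRAJ33 (0.969), TRAJ15 like TRAJ13 (0.952), TRAJ12 like TRAJ6 (0.934) and TRAJ18 like TRAJ30 (0.933).

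**Figure D2:**
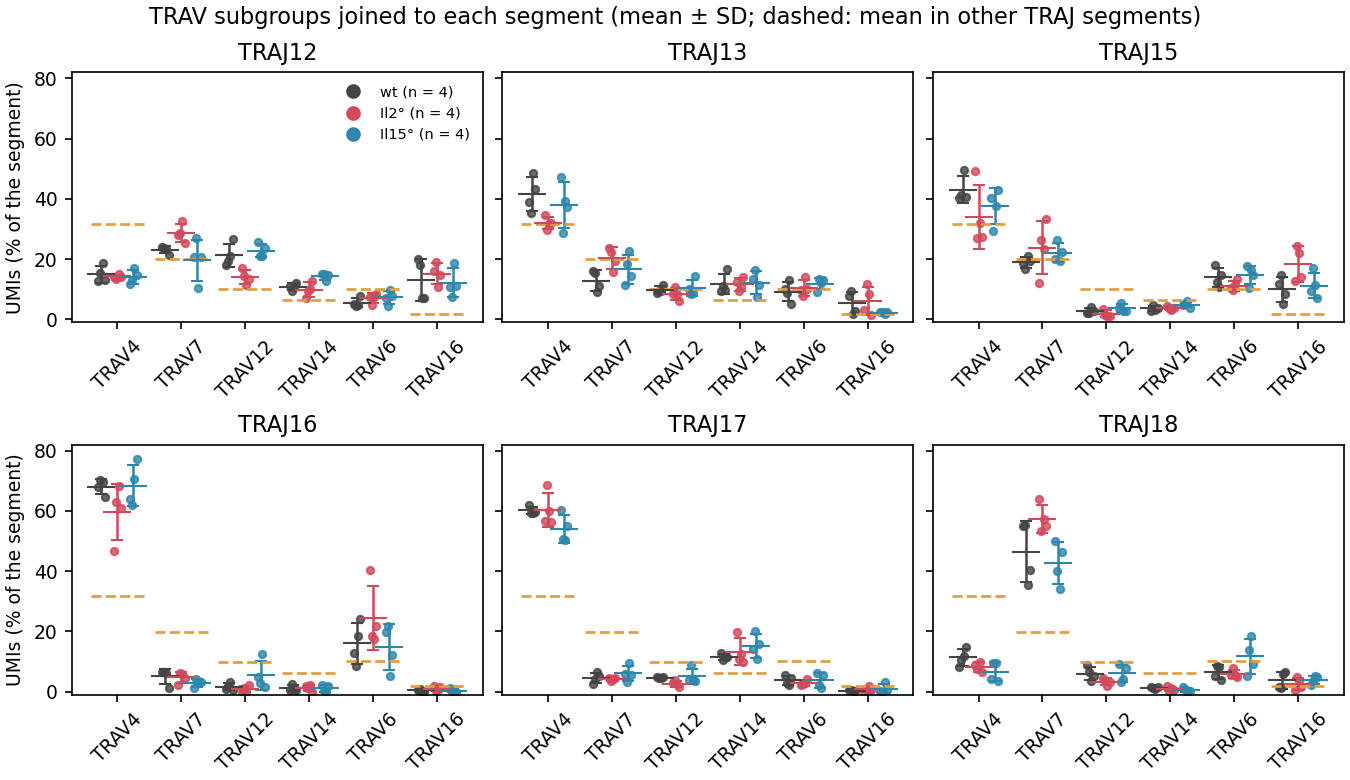
UMIs of 6 TRAV subgroups as a percentage of each segment (y axis), with 1 dot per mouse, mean ± SD of 4 mice per genotype, and a dashed line for the mean of that subgroup in all TRAJ segments outside TRAJ12 to TRAJ18. TRAV4 stands above the line in TRAJ16 and TRAJ17 and below it in TRAJ12 and TRAJ18, where TRAV7 is the leading partner.

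Some of these partners rested on 1 clonotype. Of the 2323 UMIs that joined TRAV16 to TRAJ12, 90.2% belonged to a single clonotype, whose first sequence is shown above and whose inner residues are AMREGGTGGYKVV. Without it TRAV16 was 1.60% ± 0.740 of TRAJ12 (SD, n = 12), below the 2.66% in other segments. The clonotype TRAV16N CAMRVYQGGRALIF made up 48.3% of the 1402 UMIs of TRAV16 with TRAJ15, and without it TRAV16 was still 7.48% ± 3.94. TRAV6 with TRAJ16 rested to 64.3% on TRAV6D-5 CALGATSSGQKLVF, and TRAV14 with TRAJ17 to 57.7% on TRAV14-1 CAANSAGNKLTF, without which TRAV14 was 5.72% of TRAJ17. The TRAV4 partners of TRAJ17 and the TRAV7 partners of TRAJ18 were broader, with 31.8% of 5020 UMIs in TRAV4D-4 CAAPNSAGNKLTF and 30.5% of 2560 UMIs in TRAV7-3 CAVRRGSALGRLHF.

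Between genotypes, 0 TRAV-TRAJ pairs of these segments passed the adjusted edgeR test. In Il2° against wt 0 of 49 pairs passed (background over 220 pairs, 2.27%), in Il15° against wt 0 of 49 (background 0%) and in Il15° against Il2° 0 of 46 (background over 211 pairs, 0%). At an unadjusted p under 0.05 they were 5, 3 and 9 pairs, where the background was 16.4%, 7.73% and 16.1%. DESeq2 called 1, 0 and 1 of them after adjustment, and the exact Mann-Whitney test 0 in each contrast. The median log2 fold change of the pairs was 0.02, 0.11 and 0.17, beside 0.07, 0.02 and -0.07 over all pairs.

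TRAV12 with TRAJ12 was the pair nearest to the threshold between the mutants. It held 1.62%, 1.62%, 1.40% and 2.00% of the wt libraries, 1.47%, 1.29%, 0.884% and 1.09% in Il2°, and 2.18%, 1.75%, 1.99% and 1.93% in Il15°. Every Il15° mouse lay above every Il2° mouse, while wt overlapped with both. The log2 fold change in Il15° against Il2° was 0.72 ± 0.21 (SE), with an edgeR p of 0.00201 and an adjusted p of 0.0864. This adjusted p ranged from 0.00670 (DESeq2) to 0.317 over the alternatives, and from 0.0297 (without Il15° replicate 2) to 0.251 with 1 library left out. In Il2° against wt it was -0.49 ± 0.19 (SE), with an edgeR adjusted p of 0.146. As a part of TRAJ12, TRAV12 was 21.3% ± 3.77 in wt mice, 14.1% ± 2.36 in Il2° mice and 22.9% ± 2.28 in Il15° mice (means ± SD of 4). In TRAJ segments outside the group TRAV12 was 10.8%, 9.12% and 9.89% in the 3 genotypes.

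TRAV14 with TRAJ12 held 0.985%, 0.803%, 0.714% and 0.912% of the wt libraries, 0.595%, 0.831%, 0.780% and 1.05% in Il2°, and 1.28%, 1.27%, 1.19% and 1.18% in Il15°. The Il15° mice lay above all mice of both other genotypes. The log2 fold changes of Il15° were 0.52 ± 0.18 against wt and 0.60 ± 0.22 against Il2° (SE), with edgeR adjusted p of 0.327 and 0.143. In TRAJ segments outside the group TRAV14 was 5.64%, 6.37% and 6.84% in the wt, Il2° and Il15° mice.

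TRAV16 with TRAJ15, looked at after its values were seen, was nearest to the threshold in Il2° against wt. Its share was 0.620%, 0.811%, 0.2504% and 0.421% in wt, 0.625%, 1.39%, 1.33% and 0.8% in Il2°, and 0.416%, 0.923%, 0.512% and 0.366% in Il15°. The Il2° mice overlapped with both other genotypes. Those at 0.625% and 0.8% lay below wt replicate 2 (0.811%) and Il15° replicate 2 (0.923%). The log2 fold change was 0.97 ± 0.29 (SE) in Il2° against wt with an edgeR adjusted p of 0.0618, and -0.94 ± 0.29 (SE) in Il15° against Il2° with an edgeR adjusted p of 0.105. With 1 library left out, the first of these adjusted p values lay between 0.0290 (without wt replicate 2) and 0.286, under the threshold in 2 of 8 fits, the other being that without Il2° replicate 1 (0.0301). The second lay between 0.0156 (without Il15° replicate 2) and 0.342, under the threshold in 1 of 8 fits.

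The TRAV7 pairs of TRAJ12, TRAJ13, TRAJ15 and TRAJ18 had higher means in Il2° than in wt mice, and that of TRAJ16 a lower one (log2 fold change -0.21 ± 0.57 (SE), edgeR adjusted p = 0.891), with 0 past the threshold. For TRAV7 with TRAJ18 the shares were 1.31%, 1.40%, 0.914% and 1.06% in wt, 1.94%, 1.48%, 1.67% and 1.35% in Il2°, and 1.18%, 1.16%, 0.995% and 0.990% in Il15°. The Il2° mice did not overlap with the Il15° mice (log2 fold change of Il15° against Il2° -0.59 ± 0.20 (SE), edgeR adjusted p = 0.111). TRAV7 with TRAJ13 had 0.300% ± 0.0919 in wt and 0.4998% ± 0.0806 in Il2° (SD, n = 4 each) without overlap, a log2 fold change of 0.72 ± 0.27 (SE) with an edgeR adjusted p of 0.146. TRAV7 with TRAJ12 had 1.82% ± 0.295 in wt mice, 2.39% ± 0.232 in Il2° mice and 1.67% ± 0.521 in Il15° mice (means ± SD of 4), with edgeR adjusted p of 0.210 against wt and 0.156 between the mutants, the latter between 0.0360 (without Il15° replicate 2) and 0.346 with 1 library left out. TRAV7 with TRAJ15 had 0.967% ± 0.0421 in wt mice, 1.35% ± 0.555 in Il2° mice and 1.09% ± 0.259 in Il15° mice (means ± SD of 4), and overlapped. Its log2 fold change in Il2° against wt was 0.47 ± 0.25 (SE), with an edgeR adjusted p of 0.368 that lay between 0.0301 (without Il2° replicate 1) and 0.706 with 1 library left out. Outside the group, TRAV7 made up 19.1%, 21.8% and 18.96% of the other TRAJ segments in the wt, Il2° and Il15° mice. TRAV4 with TRAJ16 also had its 4 Il15° mice above the 4 Il2° mice, at 1.298% ± 0.164 and 0.935% ± 0.217 (SD, n = 4 each, log2 fold change 0.47 ± 0.22 (SE), edgeR adjusted p = 0.287). Outside the group, TRAV4 made up 35.6%, 26.0% and 33.6% of the other TRAJ segments in the wt, Il2° and Il15° mice. There too the Il15° mice (31.2% or more) lay above the Il2° mice (27.4% or less), so the split was not particular to TRAJ16.

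Further named pairs differed less or were less abundant. TRAV12 with TRAJ17 had 0.200%, 0.201%, 0.169% and 0.185% in wt and 0.121%, 0.155%, 0.104% and 0.0787% in Il2°, without overlap (edgeR adjusted p = 0.333). TRAV6 with TRAJ18 had 0.127%, 0.213%, 0.213% and 0.104% in wt and 0.122%, 0.400%, 0.539% and 0.199% in Il15°, where the mice overlapped (log2 fold change 0.89 ± 0.42 (SE), edgeR adjusted p = 0.611).

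**Figure D3:**
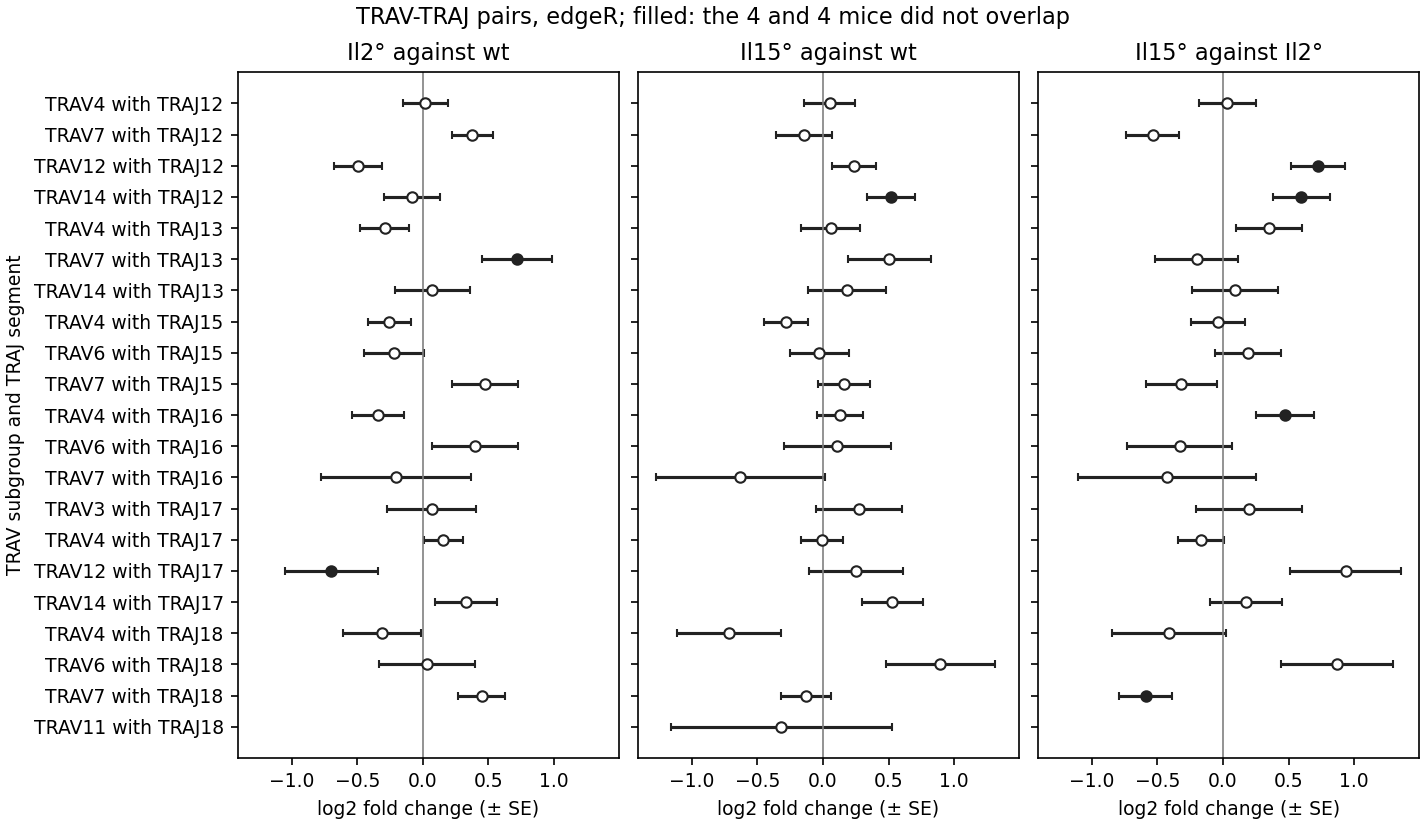
Log2 fold changes (x axis, ± SE from edgeR) of the named TRAV-TRAJ pairs in the 3 contrasts, with filled dots where the 4 and 4 mice did not overlap. TRAV12 with TRAJ12 is at 0.72 in Il15° against Il2°, and none of the pairs passed an adjusted p of 0.05.

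Single clonotypes reached high levels in several segments. The TRAV16 clonotype with TRAJ12 was the 2nd most abundant of all 20615 in-frame clonotypes, with 2095 UMIs in 12 of 12 libraries. It took 1.65%, 1.41%, 0.376% and 0.462% of the wt libraries, 1.29%, 1.61%, 0.566% and 1.08% in Il2°, and 0.827%, 0.545%, 1.62% and 0.812% in Il15°. The spread within a genotype was larger than any difference between them. TRAV4D-4 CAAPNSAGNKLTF with TRAJ17 ranked 3rd, and was steadier in wt mice (0.809% ± 0.0405) than in Il2° (0.855% ± 0.291) or Il15° mice (0.698% ± 0.173, SD, n = 4 each). TRAV4D-4 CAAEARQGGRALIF with TRAJ15 ranked 6th, at 0.673% ± 0.110, 0.647% ± 0.128 and 0.526% ± 0.263. TRAV7-3 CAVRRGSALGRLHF, the leading clonotype of TRAJ18 at rank 12, held 0.380% ± 0.0740, 0.421% ± 0.0566 and 0.383% ± 0.0398. The leading clonotypes of TRAJ16 (TRAV6D-5 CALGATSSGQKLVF, mean over 12 libraries 0.199%, rank 42) and TRAJ13 (TRAV4N-3 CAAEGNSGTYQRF, 0.0993%, rank 99) were far smaller.

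A pair of TRAJ12 clonotypes shared the end RTGGYKVVF, in which arginine stands where the germline segment has its first residue. TRAV12N-3 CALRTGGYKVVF, at rank 7, held 0.485%, 0.435%, 0.344% and 0.589% of the wt libraries, 0.512%, 0.268%, 0.215% and 0.380% in Il2°, and 0.672%, 0.654%, 0.521% and 0.667% in Il15°. All Il15° mice lay above all Il2° mice (log2 fold change 0.79 ± 0.35 (SE), edgeR adjusted p = 0.471). TRAV7D-6 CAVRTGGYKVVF, at rank 11, went from 0.0346% to 0.464% in wt, 0.309% to 0.878% in Il2° and 0.130% to 0.647% in Il15°, and the genotypes overlapped. The lowest wt value, 6 UMIs in replicate 4, became 20 UMIs with the copy TRAV7-6 merged.
TRAV12N-3 with TRAJ12: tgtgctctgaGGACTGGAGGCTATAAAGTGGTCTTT
This sequence gave 61.9% of the UMIs of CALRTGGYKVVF and shows an arginine codon that is completed by bases of TRAJ12, which are in capitals.

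**Figure D4:**
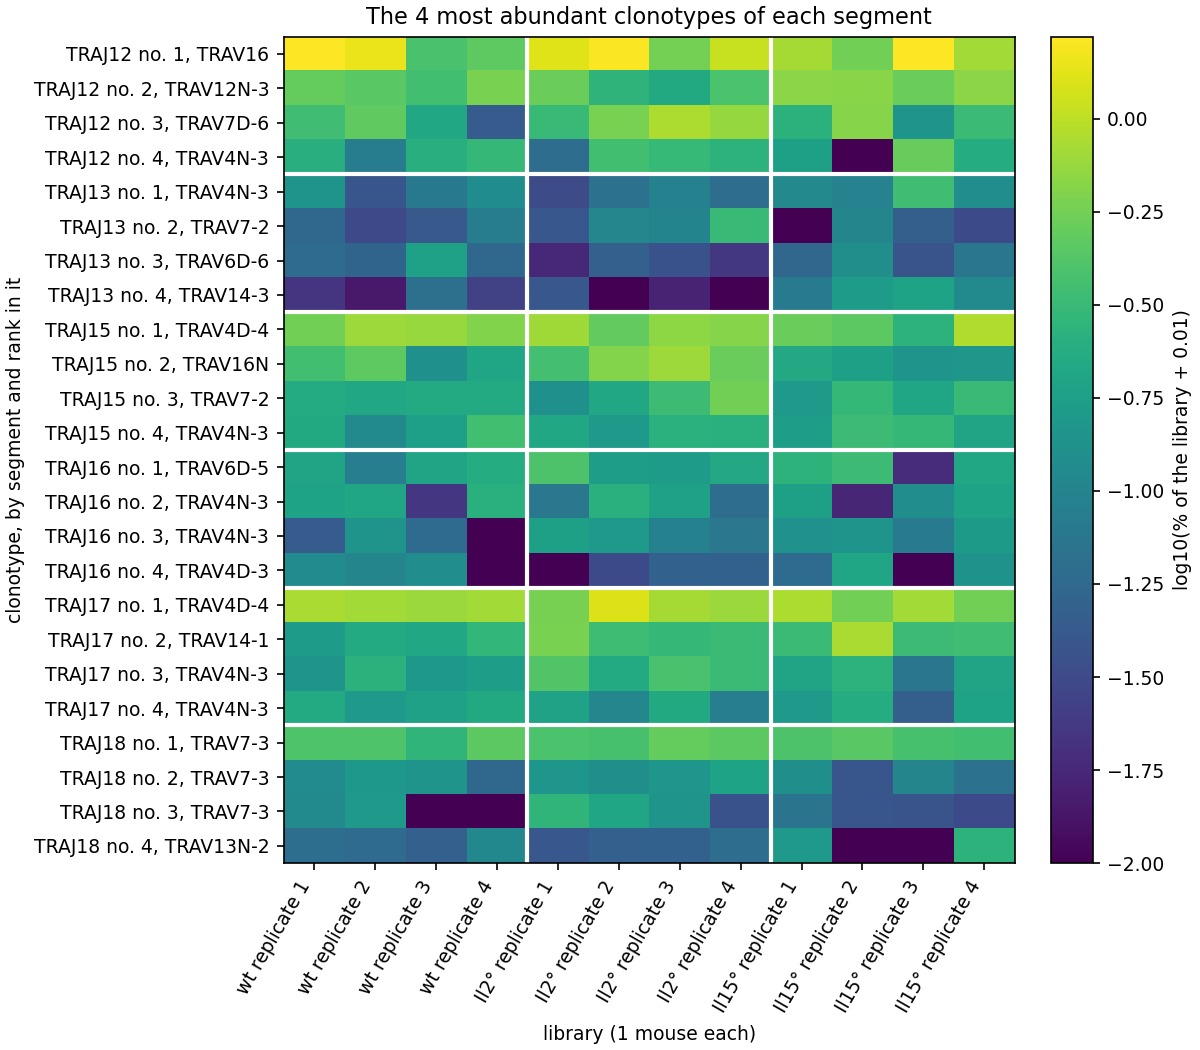
The 4 most abundant clonotypes of each segment (rows, named by segment, rank and V segment) in the 12 libraries (columns), coloured by log10 of their percentage of the library plus 0.01. The leading clonotype of each segment was present in all 12 mice, while several lower ones had 0 UMIs as named in 1 or more. In some of these mice the same CDR3 was found under another copy name of the V segment.

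No clonotype of these segments passed the adjusted edgeR test as named. There were 0 of 110 in Il2° against wt (background over 452 clonotypes, 0%), 0 of 119 in Il15° against wt (background over 466, 0%) and 0 of 92 in Il15° against Il2° (background over 352, 0%). At an unadjusted p under 0.05 there were 10, 4 and 11, beside backgrounds of 10.4%, 4.08% and 9.94%. DESeq2 called 0, 3 and 2 of them and limma 0, 1 and 0. TRAV14-3 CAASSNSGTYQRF, whose split over copy names is given below, was among the DESeq2 calls of both Il15° contrasts. The clonotypes tested are those that passed a minimum of 5 UMIs in 4 libraries, and a clonotype high in 1 genotype alone could pass through that genotype.

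TRAV16N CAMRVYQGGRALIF with TRAJ15 came nearest and was less abundant in Il15° than in Il2° mice. Its most frequent sequence is shown because this clonotype had the smallest p of the members, with the J bases in capitals.
TRAV16N with TRAJ15: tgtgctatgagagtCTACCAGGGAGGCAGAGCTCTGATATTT
It held 0.346%, 0.456%, 0.119% and 0.196% of the wt libraries, 0.354%, 0.627%, 0.780% and 0.511% in Il2°, and 0.211%, 0.174%, 0.130% and 0.140% in Il15°. All Il2° mice lay above all Il15° mice, and wt mice overlapped with both. The log2 fold change in Il15° against Il2° was -1.92 ± 0.39 (SE), with an edgeR p of 0.000143 and an adjusted p of 0.0502. With the copies of the V segment merged, which adds 17 UMIs named TRAV16 or TRAV16D/DV11, it was -1.82 ± 0.38 (SE) and passed, with an edgeR adjusted p of 0.0154. The adjusted p ranged from 0.000181 (DESeq2) to 0.286 over the alternatives, and from 0.0255 (without Il2° replicate 1) to 0.245 with 1 library left out.

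For other clonotypes the difference as named was not that of the CDR3 as a whole, because the same CDR3 carried names of different copies of the V segment in different libraries. The cause of the differing names was not tested. TRAV14-3 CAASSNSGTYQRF with TRAJ13 had 3, 1, 9 and 3 UMIs in wt, 4, 0, 1 and 0 in Il2°, and 13, 22, 20 and 19 in Il15°. The same CDR3 under the name TRAV14D-3/DV8 had 18, 16, 0 and 11 UMIs in wt, 0, 9, 11 and 8 in Il2°, and 12, 0, 0 and 0 in Il15°. Merged, the counts were 21, 17, 9 and 14 in wt, 4, 9, 12 and 8 in Il2°, and 25, 22, 20 and 19 in Il15°. The log2 fold change in Il15° against wt was 2.54 ± 0.79 (SE) as named and 0.99 ± 0.49 (SE) merged, with edgeR adjusted p of 0.399 and 0.826.

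TRAV14-1 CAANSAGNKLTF with TRAJ17 showed the same in Il2° against wt. As named it held 0.154%, 0.217%, 0.207% and 0.283% in wt, 0.588%, 0.332%, 0.293% and 0.315% in Il2°, and 0.316%, 0.850%, 0.326% and 0.334% in Il15°, with all mutant mice above all wt mice. With the copy TRAV14N-1, which had 61 and 29 UMIs in wt replicates 1 and 2 and 0 in wt replicates 3 and 4, the wt values became 0.389%, 0.339%, 0.207% and 0.283% and overlapped with both mutants. The edgeR adjusted p as named was 0.440 in Il2° against wt and 0.946 in Il15° against wt. TRAV4N-3 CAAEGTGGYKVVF with TRAJ12, with 0 UMIs in Il15° replicate 2 as named, had 28 there once TRAV4D-3 was merged.

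Other differences stayed below the threshold of the edgeR test, though not of every alternative. All but the last given here were little changed by merging copies. TRAV12N-3 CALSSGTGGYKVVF with TRAJ12, which held 128 of the 144 UMIs of this CDR3 and had no other copy of its V segment, had 11, 7, 5 and 2 UMIs in wt, 1, 6, 8 and 2 in Il2°, and 20, 10, 33 and 23 in Il15°. As a share of the library it averaged 0.0286% ± 0.0127, 0.0295% ± 0.0183 and 0.154% ± 0.105 (SD, n = 4 each), without overlap of Il15° with either other genotype. The log2 fold changes of Il15° were 2.33 ± 0.70 against wt and 2.24 ± 0.78 against Il2° (SE), with edgeR adjusted p of 0.388 and 0.366. The first ran from 0.0411 (DESeq2) to 0.998 over the alternatives. This range leaves out a filter on presence in all 4 libraries of either genotype, which admits clonotypes through the genotype where they are present. TRAV14D-3/DV8 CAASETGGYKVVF with TRAJ12 had 4, 1, 0 and 0 UMIs in wt, 4, 5, 4 and 2 in Il2°, and 11, 12, 19 and 18 in Il15°. Merged with TRAV14-3 it still had only 4, 4, 0 and 0 UMIs in wt and 12, 12, 19 and 18 in Il15° (edgeR adjusted p = 0.170 as named and 0.186 merged in Il15° against wt). DESeq2 and limma gave adjusted p of 0.00385 and 0.0314 for it as named, and the range over all alternatives ran to 0.715. TRAV4N-3 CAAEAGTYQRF with TRAJ13 had 9, 8, 6 and 7 UMIs in wt and 1, 0, 1 and 0 in Il2° (edgeR adjusted p = 0.375). Its merged counts were the same in wt, 1, 0, 2 and 0 in Il2°, and 13, 0, 9 and 7 in Il15°. TRAV4D-3 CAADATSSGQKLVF with TRAJ16 had, as named, 28, 22, 18 and 0 UMIs in wt, 0, 4, 6 and 3 in Il2°, and 9, 27, 0 and 24 in Il15°, and the genotypes overlapped. With copies merged it had 47, 43, 18 and 21 UMIs in wt, 0, 9, 11 and 3 in Il2°, and 29, 27, 13 and 51 in Il15°. Only when merged did the Il2° mice lie below both other genotypes as a share of the library. The merged log2 fold changes were -1.79 ± 0.65 in Il2° against wt and 2.15 ± 0.68 in Il15° against Il2° (SE, edgeR adjusted p = 0.227 and 0.179).

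The CDR3 of the members mostly kept the J segment whole or nearly so. TRAJ13 kept all 8 residues in 66.5% ± 4.51 of its UMIs and TRAJ12 all 9 in 45.5% ± 4.73 (SD, n = 12). TRAJ17 most often lost 1 residue and began at NSAGNKLTF (62.2% ± 5.34), as did TRAJ18 with RGSALGRLHF (55.7% ± 6.44) and TRAJ15 with QGGRALIF (55.2%). The residue just before the shared core varied with the segment. In TRAJ12 the core TGGYKVVF, in 82.5% of its UMIs, followed the germline G in 55.7% and an R in 27.0% of them. In TRAJ15 the core QGGRALIF (84.4% of UMIs) followed the germline Y in 34.5% and an R in 21.7%. In TRAJ18 the core GSALGRLHF (95.8% of UMIs) followed R in 78.1% and G in 11.1%, and in TRAJ17 the core SAGNKLTF (91.8%) followed N in 77.9%.

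Against all other segments of the same library, the CDR3 measures of a segment departed often, in 37 of 42 tests on these 6 segments beside 84.5% of 238 tests over 34 segments (exact 2-sided sign-flip permutation test over 12 libraries, Benjamini-Hochberg). TRAJ18, whose germline stretch is the longest of the 6, had the longest CDR3 of them and ranked 3rd of 34 segments, with 14.1 residues on average against 13.1 ± 0.0205 in other segments (SD, n = 12, higher in 12 of 12 libraries, exact permutation p = 0.000488). TRAJ13 was shorter, at 12.9 ± 0.132 against 13.1 ± 0.0210, in 11 of 12 libraries. TRAJ17 used 13 residues in 57.0% of its UMIs and TRAJ15 used 14 in 45.3%, whereas TRAJ12 was spread over 12 (30.0%), 13 (23.6%) and 14 residues (27.1%).

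Junctions of TRAJ16, TRAJ12 and TRAJ18 often held no base between the V and the J part, in 48.7% ± 5.01, 42.4% ± 3.29 and 41.5% ± 4.34 of UMIs against 32.5%, 31.9% and 32.6% in other segments (SD, n = 12, higher in 12 of 12 libraries each, exact permutation p = 0.000488). TRAJ13 and TRAJ17 went the other way, at 24.3% ± 4.19 and 24.2% ± 2.89, lower in 12 of 12 libraries each. These shares rest on the deposited ends of the V and J parts. The deposited J start equalled the germline match in 76.4% of TRAJ12, 76.7% of TRAJ16 and 80.6% of TRAJ18 rows. For TRAJ13 and TRAJ17 it did so in 74.1% and 89.1% of rows. The effect of the remaining rows on the shares was not tested. With each clonotype counted once, TRAJ16 (38.5% against 25.1%) and TRAJ18 (39.7% against 24.9%) were still higher in 12 of 12 libraries, while TRAJ12 (27.9% against 25.1%) was higher in 11, TRAJ13 (20.9% against 25.5%) lower in 10 and TRAJ17 (23.5% against 25.4%) lower in 9. The stretch between the first 3 residues and the J part can hold residues of the V segment as well as added ones. This stretch held a lysine or arginine in 54.9% ± 4.44 of TRAJ12 and 40.6% ± 5.39 of TRAJ15 UMIs, against 22.8% and 24.8% in other segments (higher in 12 of 12 libraries each, exact permutation p = 0.000488). In TRAJ16 and TRAJ17 such residues were scarce, at 4.01% ± 2.18 and 10.46% ± 2.75 (lower in 12 of 12 libraries each). Aspartate or glutamate was found in 38.8% ± 7.75 of TRAJ13 and 33.5% ± 4.58 of TRAJ15 UMIs but in 8.25% ± 2.23 of TRAJ17 and 8.88% ± 2.82 of TRAJ18, where other segments had 23.0% to 24.3%. When each clonotype was counted once, lysine or arginine was found in 40.2% of TRAJ12 and 35.9% of TRAJ15, more than in other segments in 12 of 12 libraries each, and in 8.89% of TRAJ16 and 19.1% of TRAJ17, less in 12 of 12 each. In TRAJ18 it was then 26.4% against 26.0%. Aspartate or glutamate was found in 38.2% of TRAJ13, 31.1% of TRAJ15, 17.4% of TRAJ17 and 13.02% of TRAJ18, in the same direction in 12 of 12 libraries each, while for TRAJ12 it was 19.6% against 24.6%, lower in 12 of 12.

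Hydrophobic residues (F, I, L, M, V, W or Y) at position 6 or 7 of the CDR3, counted from the cysteine as 1, were uncommon in 5 of the 6 segments. TRAJ16 had them in 1.34% ± 1.33 of UMIs, TRAJ17 in 2.73% ± 0.846, TRAJ18 in 3.45% ± 1.60, TRAJ13 in 5.76% ± 1.39 and TRAJ12 in 8.30% ± 1.31 (SD, n = 12), lower than in other segments in 12 of 12 libraries each. TRAJ15 was the exception, at 26.1% ± 5.22 against 18.9% ± 0.926 (higher in 11 of 12 libraries, exact permutation p = 0.00146). This measure counts residues of either the junction or the J segment, as both can stand at these positions.

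Between genotypes, 0 of 42 CDR3 measures of the segments passed the exact 2-sided Mann-Whitney test after Benjamini-Hochberg adjustment in any contrast (background 0% in each over 238 tests). At the smallest p that 4 against 4 mice allow, 0.0286, there were 1, 3 and 4 in Il2° against wt, Il15° against wt and Il15° against Il2°, where the background was 8.4%, 3.78% and 7.56%. In Il15° mice lysine or arginine was found in 36.9%, 38.4%, 30.0% and 36.8% of TRAJ15 UMIs, in Il2° mice in 43.7%, 48.1%, 50.4% and 41.6%, and in wt mice in 42.2%, 40.9%, 40.1% and 37.8%. The mutants did not overlap (difference -10.4 percentage points, exact Mann-Whitney adjusted p = 0.432). With each clonotype counted once the difference was -2.15 points (exact Mann-Whitney adjusted p = 0.648), and that of Il15° against wt turned from -4.76 to 2.17 points. For TRAJ13 the same measure differed by -9.57 points between the mutants, again without overlap, but by -2.24 points with each clonotype counted once (exact Mann-Whitney adjusted p = 0.897). Mean TRAJ18 length was 0.219 residues longer in Il15° than in Il2° mice, the lengths being 13.9 to 14.03 in Il2° and 14.1 to 14.2 in Il15°. For aspartate or glutamate in TRAJ16, at 22.4%, 19.1%, 20.8% and 20.6% in wt and 6.9%, 13.7%, 16.5% and 13.5% in Il2°, the difference of -8.08 points turned to 1.58 when each clonotype was counted once. In TRAJ segments outside the group the same measure was 25.4%, 20.6% and 24.5% in the wt, Il2° and Il15° mice. There too the wt mice (24.5% or more) lay above the Il2° mice (21.9% or less), so the split was not particular to TRAJ16.

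Many of the abundant clonotypes were found in every mouse. Of the 4430 clonotypes of the 6 segments 51 were present in all 12 libraries, which is 29.3% of the 174 such clonotypes of all segments, where the 6 segments hold 21.5% of all clonotypes. TRAJ12 had 20 of them, TRAJ15 had 13, TRAJ17 had 8, TRAJ13 and TRAJ18 had 4 each and TRAJ16 had 2. They carried 42.8% ± 3.27 of the TRAJ12 UMIs, 45.1% ± 5.63 of TRAJ15 and 42.0% ± 6.33 of TRAJ17, but 21.9% ± 3.28 of TRAJ18, 19.7% ± 7.06 of TRAJ16 and 9.28% ± 3.42 of TRAJ13 (SD, n = 12), beside 29.1% ± 1.11 over all segments. At the other end, between 49.6% and 51.8% of each segment's clonotypes were found in 1 library alone. These counts are descriptions with no test.

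The shared CDR3 were built by several nucleotide sequences. Clonotypes found in 12 libraries had between 6.25 (TRAJ18) and 8.5 (TRAJ17) sequences on average, beside 1.36 to 1.52 over all clonotypes of a segment. TRAV4D-4 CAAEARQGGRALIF was made in 23 ways, the highest number in the series, and its most frequent sequence gave only 17.4% of its UMIs. The TRAV16 clonotype with TRAJ12 had 8 sequences, with 63.1% of UMIs from the one shown above, which was present in 12 of 12 libraries.

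Present in all 4 mice of a genotype were 140 clonotypes of these segments in wt, 99 in Il2° and 106 in Il15°. Over all segments there were 618, 423 and 403, so the counts were also lower in both mutants there. These segments held 22.7%, 23.4% and 26.3% of them, beside 21.5% of all clonotypes. With all libraries drawn down to 7625 UMIs (mean of 20 draws) the numbers for these segments were 86, 79.7 and 75.5. By segment the counts in wt, Il2° and Il15° were 53, 32 and 42 for TRAJ12, 31, 24 and 22 for TRAJ15, and 17, 15 and 17 for TRAJ17. TRAJ18 had 16, 13 and 9, TRAJ13 had 17, 8 and 9, and TRAJ16 had 6, 7 and 7.

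The invariant pair of iNKT cells, TRAV11 with TRAJ18, was present as a trace. It had 8, 5, 14 and 17 UMIs in wt, 9, 5, 2 and 1 in Il2°, and 11, 15, 1 and 1 in Il15°, between 0.00538% and 0.109% of a library and at most 3.79% of TRAJ18. Its levels ranged as widely within Il15° mice as between genotypes, and 4 of the 12 libraries had fewer than the floor of 3 UMIs. Of its 89 UMIs 61 carried the canonical CDR3, found in 12 of 12 libraries in 4 nucleotide sequences, of which the most frequent is shown with its J bases in capitals.
TRAV11 with TRAJ18: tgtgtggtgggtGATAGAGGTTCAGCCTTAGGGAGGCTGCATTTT
Without TRAV11, TRAJ18 would lose between 0.251% and 3.79% of its UMIs, so that its levels above were hardly moved by this pair. TRAV1 with TRAJ33, the pair of mucosal-associated invariant T cells, had 0 to 28 UMIs per library. TRAV11 is used here as a marker of that receptor only, since no other gene of these cells was measured.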

How the data were processed

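TCRα cDNA of 12 thymic Treg samples, 1 mouse each, was sequenced with UMIs. The authors filtered reads by quality, used pRESTO to build a consensus per UMI, dropped UMIs seen in fewer than 2 reads, assembled clonotypes with MiXCR and converted them to VDJtools tables, which were deposited as whole-number counts of UMIs per clonotype. The deposited fraction of each clonotype was computed by the authors from its UMIs and the library's sum. The submitters' processing notes name mm10, and tool versions are not given in the sources used here. Errors before the consensus step, and the choice among near-identical V copies, can change which clonotype a UMI was given to.

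The segments, gene lists and tests were chosen with earlier results of these data known. Groups came from the sample labels. In-frame rows were summed by segment, by TRAV subgroup with TRAJ, and by clonotype (V, CDR3 amino acids, J). Segments and pairs with at least 10 UMIs in 4 of 8 libraries, and clonotypes with at least 5 in 4, were tested in each pair of genotypes with edgeR 4.0.16 (quasi-likelihood, TMM) in R 4.3.3, adjusted by Benjamini-Hochberg, and called at an adjusted p under 0.05. CDR3 measures, taken per library over 34 segments with at least 20 UMIs in each library, went into 2-sided exact tests of Mann and Whitney (scipy 1.17.1), for which 4 against 4 mice allow no p below 0.0286. The fits were also run on simulated counts with a single fixed dispersion for all features. That run does not show how they perform at the spread between these mice. Each segment was also set against all other segments with an exact sign-flip permutation over 12 libraries, a test chosen after seeing the data.

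Named items were, for each segment, the 3 leading TRAV subgroups, the 4 leading clonotypes, the TRAV11 pair of TRAJ18, and in each contrast the 3 pairs and 3 clonotypes with the smallest p whose mice did not overlap, with the 2 most similar TRAJ segments by each measure. Any other named item was chosen after its values were seen. Alternatives were DESeq2 1.42.0, limma 3.58.1 on log2(percent + 0.01), other filters, V copies merged, CDR3 nucleotides, each clonotype counted once, downsampling to 7625 UMIs and each library left out. Not analysed further were 415 UMIs of rows that were not in-frame. Germline sequences and coordinates came from GENCODE M21 on GRCm38. The mice were individual animals, and p-values measure the spread between them.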

Additional observations from a re-analysis of the deposited data

Results flagged for a closer look

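Of 288 groups of 4 mice, 20 held 1 mouse whose gap to the nearest other exceeded Dixon's critical share of the group's range, where chance at 1 in 20 gives about 14.4. The values are given without explanation.

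Among clonotypes, as percentages of the library, TRAV4N-3 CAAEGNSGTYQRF was at 0.335% in Il15° replicate 3 against 0.0872% to 0.113% in the other Il15° mice, and TRAV4N-3 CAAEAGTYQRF was at 0.0837% in the same mouse against 0 in the others, of which replicates 1 and 4 held 13 and 7 UMIs of this CDR3 under the copy name TRAV4D-3. TRAV12N-3 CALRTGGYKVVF was at 0.521% there against 0.654% to 0.672%. TRAV6D-6 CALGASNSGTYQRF reached 0.175% in wt replicate 3, where the remaining wt mice had 0.0418% to 0.05004%. TRAV14-1 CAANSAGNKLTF reached 0.588% in Il2° replicate 1 against 0.293% to 0.332%, and 0.850% in Il15° replicate 2 against 0.316% to 0.334%.

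Among TRAV partners, as percentages of the segment, TRAV4 made up 49.6% of TRAJ15 in wt replicate 3 against 40.2% to 41.4%, and 62.1% of TRAJ17 in wt replicate 1 against 59.3% to 59.7%. TRAV7 made up 1.23% of TRAJ16 in wt replicate 4 against 6.06% to 6.44%, and TRAV12 8.76% of TRAJ17 in Il15° replicate 2 against 3.48% to 4.30%.

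Among CDR3 measures, junctions without an added base were 21.1% of TRAJ13 in wt replicate 2 against 27.3% to 28.3%, and the mean number of added bases in TRAJ17 was 2.54 in Il2° replicate 1 against 2.04 to 2.13. The mean number of J bases was 26.4 for TRAJ12 in Il2° replicate 2, and 24.8 for TRAJ13 in Il2° replicate 1 against 25.2 to 25.3. Aspartate or glutamate was found in 23.8% of TRAJ13 in Il15° replicate 2 against 43.8% to 47.5%. Lysine or arginine was found in 6.61% of TRAJ16 in Il15° replicate 1 against 1.11% to 1.78%, and in 39.2% of TRAJ18 in Il2° replicate 4 against 29.9% to 31.0%. Hydrophobic residues at position 6 or 7 were found in 9.496% of TRAJ12 in Il15° replicate 1 against 7.30% to 7.56%, in 3.49% of TRAJ16 in wt replicate 1 against 1.67% to 1.85%, and in 1.15% of TRAJ16 in Il15° replicate 1 against 0 in the other Il15° mice.

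Outside the in-frame data, 415 UMIs in 216 rows of these segments had a stop or a frameshift in the CDR3, between 0.405% and 1.39% of the segments' UMIs per library.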

How the results depend on the processing

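With the V names as deposited, 0 segments, 0 pairs and 0 clonotypes of TRAJ12 to TRAJ18 passed the adjusted edgeR test in any contrast. Clonotypes called in Il15° against Il2° were 2 by CDR3 nucleotides, 2 by DESeq2 and 1 with V copies merged. In Il15° against wt there were 3 by DESeq2 and 1 by limma, and in Il2° against wt 1 with no filter. The last was TRAV14N-1 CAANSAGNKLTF, the copy name with 61 and 29 UMIs in wt replicates 1 and 2 and 0 in each Il2° mouse. TRAV14-3 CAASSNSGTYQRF, also split over copy names, was among the DESeq2 calls of both Il15° contrasts and those by CDR3 nucleotides. With copies merged its edgeR adjusted p was 0.826 against wt and 0.409 against Il2°. A filter on presence in all 4 libraries of either genotype gave 21 in Il15° against Il2°, 24 in Il15° against wt and 11 in Il2° against wt, but it admits clonotypes through the genotype where they are present, so that they had to differ. Pairs called in Il15° against Il2° were 1 each by DESeq2, with all 12 libraries in 1 fit and with no filter, and in Il2° against wt 1 each by DESeq2, with a minimum of 5 UMIs and with no filter. Over all segments, DESeq2 called 15, 0 and 9 pairs in Il2° against wt, Il15° against wt and Il15° against Il2°, where edgeR called 5, 0 and 0, and 3, 2 and 4 segments where edgeR called 0, 2 and 4. For clonotypes it called 6, 5 and 3 where edgeR called 0 in each.

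With 1 library left out, the counts ranged from 0 to 1 for clonotypes and for segments in Il15° against Il2°, from 0 to 3 for pairs in Il15° against Il2° (3 without Il15° replicate 2) and from 0 to 2 for pairs in Il2° against wt (2 without Il2° replicate 1, TRAV16 and TRAV7 with TRAJ15). Log2 fold changes ranged from -0.0487 to 0.204 for TRAJ13 and from -0.0555 to 0.0481 for TRAJ17 in Il15° against Il2°, and from -0.0899 to 0.0109 for TRAJ15 and from -0.00808 to 0.158 for TRAJ18 in Il15° against wt. Counting each clonotype once turned the sign for TRAJ13 (-0.0190) and TRAJ15 (0.00408) in Il15° against Il2°, TRAJ15 (0.0859) and TRAJ18 (-0.0464) in Il15° against wt, and TRAJ16 (0.0193) and TRAJ18 (-0.0213) in Il2° against wt. TRAJ17 in Il15° against Il2° turned to 0.00411 by DESeq2, 0.0119 with all 12 libraries in 1 fit and 0.0310 with no filter. Aspartate or glutamate in TRAJ16 turned to -0.258 points in Il15° against Il2° and 1.58 in Il2° against wt. The cause was not tested.

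Clonotypes present in all 4 mice of a genotype, 140 in wt, 99 in Il2° and 106 in Il15°, became 302, 242 and 283 when presence in 3 of 4 libraries was enough. They fell to 86 in wt with downsampling and to 62 in Il15° at 2 UMIs or more. With 1 library left out they ranged from 161 to 199 in wt, from 117 to 156 in Il2° and from 117 to 191 in Il15°. The mice share replicate numbers between genotypes but are different animals, and they were treated as unpaired. Same-numbered deviations correlated from -0.407 to 0.468 for segments and from -0.200 to 0.144 for clonotypes. Differently numbered libraries were not compared, so whether same-numbered mice shared a litter or batch was not tested. With a replicate block, pairs of these segments called in Il15° against Il2° came to 1 (TRAV16 with TRAJ15), with 4 over all segments.

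Depth sets a limit, as 3 UMIs are 0.0115% to 0.0393% of a library, and clonotypes below the minimum were not tested.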

Other observations

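The distance along the chromosome from the joined V segment to the Trac gene differed among the members. TRAJ12 joined V segments at a mean of 924 kb (rank 33 of 34 from the farthest), TRAJ18 at 956 kb (rank 31) and TRAJ16 at 1147 kb (rank 5). These are means over the UMIs whose V segment has a position in the annotation, given as values without a test. Such UMIs were 90.1% of TRAJ12, 97.0% of TRAJ18 and 100% of TRAJ16.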
